A study of Mus musculus with 20 samples.

Results

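Fat cell marker transcripts were measured in 20 RNA-seq libraries of mouse kidney to gauge how much fat cell RNA each piece of kidney carried. The markers were the 8 genes Adipoq, Lep, Cfd, Plin1, Cidec, Fabp4, Car3 and Ucp1, taken by symbol from the 24421 gene symbols of the count table, and all 8 were in it. The libraries fell into 4 groups of 5: Fh1-/- at day 10, Fh1+/+ at day 10, Fh1-/- at day 5 and Fh1+/+ at day 5 after induction. Mice of both genotypes were homozygous for a tamoxifen-inducible Cre recombinase driven by the ubiquitously active Rosa26 promoter. All were injected with tamoxifen in corn oil into the abdomen, 2 mg each time in 3 doses. Fh1-/- mice were homozygous for a floxed Fh1 allele whose exons 3 and 4 are excised. Recombination was thus possible in any tissue, fat included, while Fh1+/+ littermates carried the unmodified gene. The background was mixed C57BL/6 and 129/SvJ. The sample records give an age of 12 weeks for all 20 libraries, and the study's methods give 10 to 12 weeks. The labels number the libraries without naming animals or litters, and the p-values therefore rest on the scatter of libraries, which may be partly technical.

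The kidney is embedded in perirenal fat, which in mice holds white fat cells, each with a single large lipid droplet, and brown fat cells, which hold many small droplets and burn lipid for heat. Adiponectin (Adipoq), leptin (Lep) and adipsin (Cfd, complement factor D) are secreted by white fat cells. Perilipin 1 (Plin1) and CIDEC (also called Fsp27) coat the fat cell droplet, where Plin1 gates lipolysis and Cidec drives droplet fusion. Fabp4 carries fatty acids inside fat cells and is also made by capillary endothelium and macrophages. Car3, carbonic anhydrase 3, is abundant in fat and muscle, and Ucp1, the uncoupling protein of brown fat mitochondria, defines thermogenic fat cells. Fh1 encodes fumarate hydratase of the tricarboxylic acid cycle.

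The 8 genes lie on separate chromosomes but for 2 pairs. In GRCm38, Adipoq spans chromosome 16 from 23146536 to 23158028 (plus strand), Cfd chromosome 10 from 79890853 to 79892655 (plus), Plin1 chromosome 7 from 79720218 to 79732903 (minus) and Ucp1 chromosome 8 from 83290352 to 83298452 (plus). Lep, from 29060220 to 29073877 (plus), and Cidec, from 113424634 to 113435760 (minus), share chromosome 6. Fabp4, from 10204088 to 10208576 (minus), and Car3, from 14863512 to 14872523 (plus), share chromosome 3.

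The promoters of the 3 markers used below as an index of fat cell RNA (Adipoq, Plin1 and Cidec) are shown because these genes varied together across the libraries. The windows run from 250 bases before to 50 bases after a transcription start, 5′ to 3′ on the gene's strand, in RefSeq sequence of GRCm38.p6. They lie at chr16:23146286-23146585 (plus strand) for Adipoq, chr7:79732727-79733026 (minus strand) for Plin1, and chr6:113434715-113435014 and chr6:113435711-113436010 (both minus strand) for the 2 starts of Cidec. Capitals mark matches to TTGCNNAA, a consensus for the C/EBP factors of fat cell differentiation, searched on both strands.
Adipoq: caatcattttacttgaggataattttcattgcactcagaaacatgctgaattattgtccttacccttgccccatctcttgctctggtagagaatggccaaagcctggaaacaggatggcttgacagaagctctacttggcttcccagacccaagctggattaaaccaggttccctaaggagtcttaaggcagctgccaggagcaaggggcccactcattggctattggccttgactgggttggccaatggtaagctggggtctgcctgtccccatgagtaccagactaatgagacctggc
Plin1: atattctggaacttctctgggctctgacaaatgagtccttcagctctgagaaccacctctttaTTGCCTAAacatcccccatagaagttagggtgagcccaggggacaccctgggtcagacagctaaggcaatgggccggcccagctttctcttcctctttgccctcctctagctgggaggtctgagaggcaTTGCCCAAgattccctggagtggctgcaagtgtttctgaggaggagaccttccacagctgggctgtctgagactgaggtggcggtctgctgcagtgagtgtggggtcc
Cidec, inner start: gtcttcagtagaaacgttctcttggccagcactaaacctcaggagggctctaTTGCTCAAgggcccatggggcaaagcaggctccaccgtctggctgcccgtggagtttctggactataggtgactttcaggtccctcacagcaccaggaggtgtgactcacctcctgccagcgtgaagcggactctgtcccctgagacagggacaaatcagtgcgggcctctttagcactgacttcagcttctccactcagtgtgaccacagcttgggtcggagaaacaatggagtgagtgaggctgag
Cidec, outer start: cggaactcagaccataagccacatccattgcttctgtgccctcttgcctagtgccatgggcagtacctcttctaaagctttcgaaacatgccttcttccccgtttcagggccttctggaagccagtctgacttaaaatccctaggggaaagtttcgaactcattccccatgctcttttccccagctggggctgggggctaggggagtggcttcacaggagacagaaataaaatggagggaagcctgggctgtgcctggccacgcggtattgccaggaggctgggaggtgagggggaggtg
Of the 8 markers, 6 had an entry in the RefSeq promoter table, with 7 windows in all. TTGCNNAA was found in 3 of these 7 windows (those of Plin1, Lep and the inner start of Cidec) and in 10.8% of 32851 mouse promoter windows of the same length. No window of the 7 held the direct repeat bound by PPAR and RXR (AGGNCA, any base, AGGNCA; 0.381% of all windows), the palindrome bound by EBF factors (TCCC, any 2 bases, GGGA; 0.904%), or TATAAA (13.6%). A match of letters is a description of the sequence only.

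In these libraries the total counts ranged from 16654829 to 25001294 reads (median 18547503). Fh1 averaged 350 ± 62.4 CPM in Fh1-/- and 238 ± 13.2 CPM in Fh1+/+ libraries at day 10, and 221 ± 14.7 CPM in Fh1-/- and 249 ± 20.1 CPM in Fh1+/+ libraries at day 5 (SD, n = 5 each). These counts also hold reads of exons that remain after excision, so they do not check the genotype labels. Fh1-/- day 10 replicates 1 and 3 stood apart from the other libraries on the first principal component, at 125 and 128. A low Y-linked sum (under 10 CPM) was found in 3 Fh1-/- and 2 Fh1+/+ libraries of day 10 and in 2 Fh1-/- and 1 Fh1+/+ library of day 5. The 10 kidney markers, which include the tubule genes Lrp2, Slc34a1 and Umod, summed to between 10076 and 24080 CPM in the Fh1-/- day 10 libraries and between 15713 and 20953 CPM in the Fh1+/+ day 10 libraries, so the labelled tissue was plain in every one.

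The fat cell markers were low and uneven. Their 8 transcripts together made up 43.0 to 688 CPM (counts per 1000000 reads, TMM-normalized) in Fh1-/- and 59.7 to 494 CPM in Fh1+/+ libraries at day 10, and 45.5 to 146 CPM in Fh1-/- and 67.4 to 373 CPM in Fh1+/+ libraries at day 5. Scaled to exon length, the median level over the 20 libraries was highest for Cfd (12.2 CPM per kilobase), followed by Fabp4 (11), Car3 (8.41), Cidec (3.95), Adipoq (2.70), Plin1 (0.367), Lep (0.0526) and Ucp1 (0.0501). The ranges over libraries of neighbours in this order overlapped throughout. A bulk library cannot tell fewer fat cells from less RNA per fat cell.

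Spread between libraries of 1 group set most of these genes apart. The SD of log2 CPM within groups was 2.61 for Ucp1, 2.33 for Cfd, 2.18 for Adipoq, 2.15 for Plin1, 1.88 for Cidec and 1.45 for Car3, against a median of 0.299 over 14925 genes. From the highest SD down, Ucp1 was number 27 of these genes, Cfd number 31, Adipoq 43, Plin1 49, Cidec 74 and Car3 184. Fabp4 was steadier, with an SD of 0.63, and 82.5% of genes had a lower one. Lep was too low for the filter on low counts.

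Adipoq, which encodes the most fat-cell-restricted of the secreted markers, was at 1.16, 41.3, 0.640, 0.112 and 2.16 CPM in Fh1-/- day 10 replicates 1 to 5, against 0.102, 3.10, 4.36, 7.70 and 21.6 CPM in Fh1+/+ day 10 replicates 1 to 5. At day 5 it was at 1.42, 7.21, 0.344, 5.16 and 1.07 CPM in Fh1-/- replicates 1 to 5, against 11.9, 7.71, 11.8, 16.8 and 1.22 CPM in Fh1+/+ replicates 1 to 5. The genotypes overlapped at both days, and the highest library, Fh1-/- day 10 replicate 2, held 403 times the level of the lowest, Fh1+/+ day 10 replicate 1, whose value rests on 2 reads. Cfd was at 7.54, 292, 8.89, 3.25 and 9.81 CPM in the Fh1-/- libraries of day 10, against 0.768, 22.8, 12.6, 65.0 and 106 CPM in the Fh1+/+ libraries. At day 5 Cfd was at 2.17, 37.9, 1.49, 9.74 and 3.66 CPM in Fh1-/- libraries, against 70.2, 43.1, 67.7, 136 and 2.71 CPM in Fh1+/+ libraries. The same libraries were high and low as for Adipoq: Fh1-/- replicate 2 led its group at each day, and Fh1+/+ day 5 replicate 5 was the lowest of its group for both genes. Lep stayed at or under 0.855 CPM, with at most 19 reads in a library and 4 libraries at 0. A count of 0 allows up to 3 reads, or 0.120 to 0.180 CPM at these depths (counting error only).

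Of the droplet proteins, Plin1 was at 1.47, 16.3, 0.853, 0.224 and 0.450 CPM in Fh1-/- day 10 replicates 1 to 5, against 0, 1.62, 1.82, 6.26 and 17.8 CPM in Fh1+/+ day 10 replicates 1 to 5. At day 5 it was at 0.543, 2.86, 0.115, 1.80 and 0.510 CPM in Fh1-/- libraries, against 5.36, 3.75, 7.27, 7.97 and 0.213 CPM in Fh1+/+ libraries. The genotypes overlapped at both days, as for Adipoq. Cidec was at 12.7, 97.1, 14.4, 1.12 and 7.60 CPM in the Fh1-/- libraries of day 10, against 0.563, 3.56, 3.43, 7.97 and 19.3 CPM in the Fh1+/+ libraries. At day 5 Cidec was at 1.34, 12.9, 0.172, 2.96 and 1.85 CPM in Fh1-/- libraries, against 16.4, 7.05, 13, 20.8 and 1.92 CPM in Fh1+/+ libraries. In Fh1-/- day 10 replicates 1 and 3, where Adipoq was at 1.16 and 0.640 CPM, Cidec was thus near its level in Fh1+/+ day 5 replicates 1 and 3, where Adipoq was at 11.9 and 11.8 CPM.

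Fabp4 and Car3 had a level in every library. Fabp4 was at 43.3, 155, 40.5, 35.8 and 50.1 CPM in Fh1-/- day 10 replicates 1 to 5, against 53.4, 62.1, 48.8, 69.0 and 159 CPM in Fh1+/+ day 10 replicates 1 to 5. At day 5 it was at 29.1, 43.2, 26.9, 27.6 and 44.3 CPM in Fh1-/- libraries, against 58.8, 76.5, 77.3, 80.8 and 35.8 CPM in Fh1+/+ libraries. Its range over the 20 libraries was 5.91-fold, and it did not drop below 26.9 CPM even where Adipoq was at 2 reads. Car3 was at 6.01, 83.1, 5.90, 2.30 and 3.82 CPM in the Fh1-/- libraries of day 10, against 4.82, 22.7, 10.1, 46.4 and 113 CPM in the Fh1+/+ libraries. At day 5 Car3 was at 13.8, 41.6, 16.4, 37.5 and 10.9 CPM in Fh1-/- libraries, against 63.5, 59.8, 78.5, 104 and 25.5 CPM in Fh1+/+ libraries. The 4 lowest Car3 values of the Fh1-/- day 10 group lay under all 5 of the Fh1-/- day 5 group, and only replicate 2 lay above them.

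**Figure D1:**
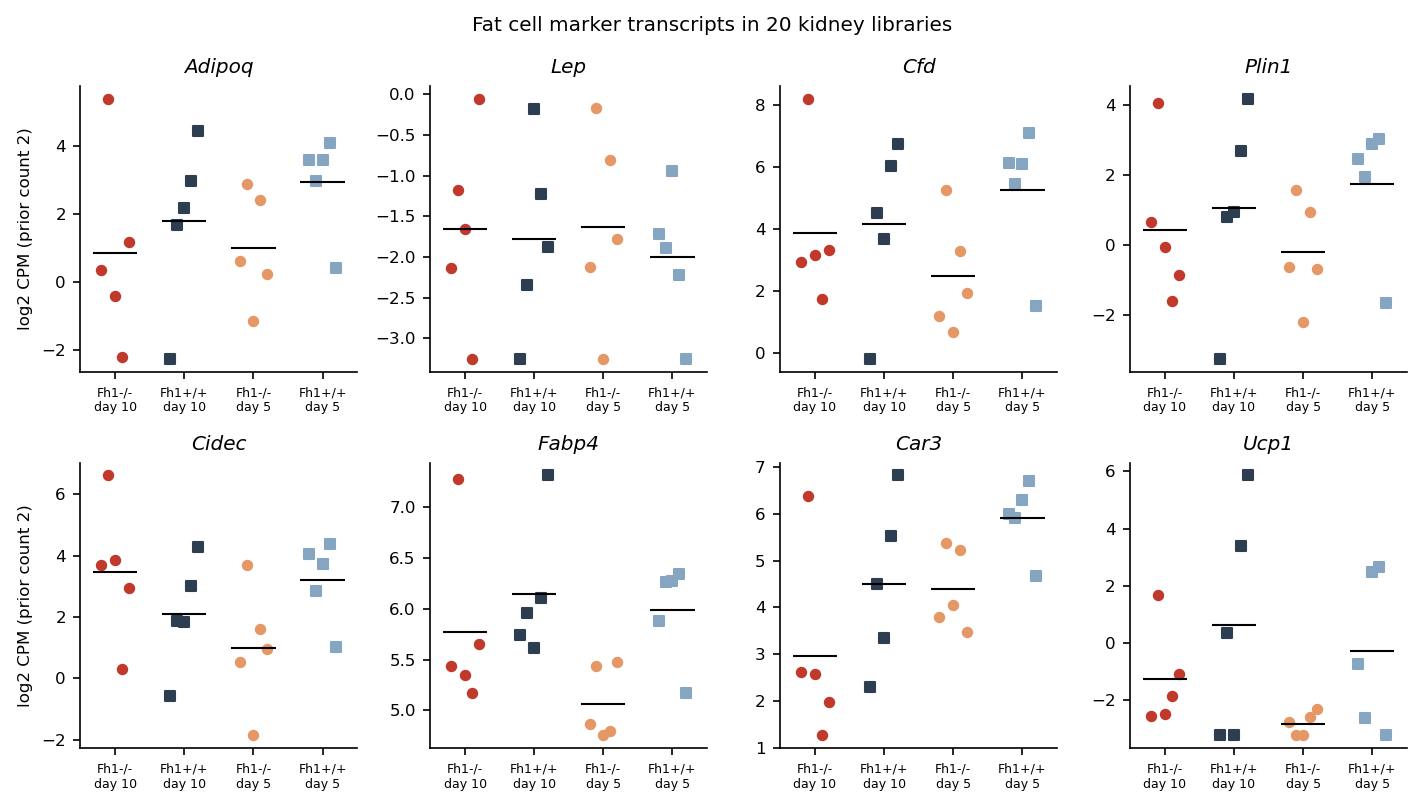
Level of each fat cell marker (log2 CPM, prior count 2) in the 20 kidney libraries. Points are libraries in replicate order within each group, lines are group means of log2 CPM, and each panel has its own axis. Fh1-/- day 10 replicate 2 tops its group for Adipoq, Cfd, Plin1, Cidec, Fabp4, Car3 and Ucp1, and Lep is highest in replicate 5.

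Ucp1 was highest in another library than Adipoq. Ucp1 was at 0.0613, 3.09, 0.0711, 0.168 and 0.360 CPM in Fh1-/- day 10 replicates 1 to 5, against 0, 1.16, 0, 10.5 and 58.0 CPM in Fh1+/+ day 10 replicates 1 to 5. At day 5 no Fh1-/- library exceeded 0.0927 CPM of Ucp1 (2 reads), while the Fh1+/+ libraries held 0.497, 0.0551, 5.42, 6.23 and 0 CPM. Of the 1561 Ucp1 reads of the series, 1259 were in the Fh1+/+ day 10 group. Fh1-/- day 10 replicate 2, the library with the most Adipoq, held 55 Ucp1 reads beside 734 of Adipoq, whereas Fh1+/+ day 10 replicate 5 held 1038 beside 387. Cidea, a droplet protein of brown fat cells, was nonetheless near in both, at 19.4 CPM in Fh1-/- day 10 replicate 2 and 22.1 CPM in Fh1+/+ day 10 replicate 5. Other brown fat genes went both ways between the day 10 groups. The highest Fh1-/- library held 0.788 CPM of Otop1 and 0.355 CPM of Dio2, against 4.69 and 3.79 CPM in the highest Fh1+/+ library. For Kcnk3 and Elovl3 the highest values were 18.8 and 1.46 CPM in Fh1-/-, against 10.2 and 0.558 CPM in Fh1+/+ libraries. Zic1 and Lhx8, transcription factors of interscapular brown fat, were at most 0.142 and 0.056 CPM in any library. At an average of 0.751 ± 1.32 CPM in Fh1-/- and 13.9 ± 25.0 CPM in Fh1+/+ libraries at day 10 (SD, n = 5 each), Ucp1 had an SD above its mean in both genotypes and did not pass the filter on low counts in either genotype comparison.

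Apart from their levels, the markers moved together from library to library. Taking the mean log2 CPM of Adipoq, Plin1 and Cidec as an index of fat cell RNA, Cfd followed it with r = 0.97 and rho = 0.96 (n = 20, permutation p = 1e-05 for each, the smallest 100000 resamples can give, adjusted p = 6e-05 over 6 relations). Car3 followed it with r = 0.78 and rho = 0.84 (n = 20, permutation p = 7e-05 and 2e-05, adjusted p = 0.0002 and 6e-05). Fabp4 followed it with r = 0.77 and rho = 0.72 (n = 20, permutation p = 0.0001 and 0.0004, adjusted p = 0.0002 and 0.0008). For Ucp1 r was 0.69 and rho 0.64 (n = 20, permutation p = 0.00073 and 0.0031, adjusted p = 0.0011 and 0.0047), and for Lep r was 0.56 and rho 0.51 (n = 20, permutation p = 0.011 and 0.022, adjusted p = 0.013 and 0.027). Without the 2 libraries farthest from the median index, r was 0.96 for Cfd, 0.74 for Car3, 0.81 for Fabp4, 0.67 for Ucp1 and 0.48 for Lep. Within groups, with each group centred on its mean, r was 0.97 for Cfd, 0.91 for Car3, 0.79 for Fabp4, 0.69 for Ucp1 and 0.66 for Lep. Fabp4 is also an endothelial gene, and against the mean of 12 endothelial markers its r was 0.26 and its rho 0.29 (n = 20, permutation p = 0.28 and 0.21, adjusted p = 0.28 and 0.21), with r = 0.23 without the 2 libraries farthest from the median. The 20 libraries differ in genotype and day as well as in fat, and share these values with the comparisons below.

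**Figure D2:**
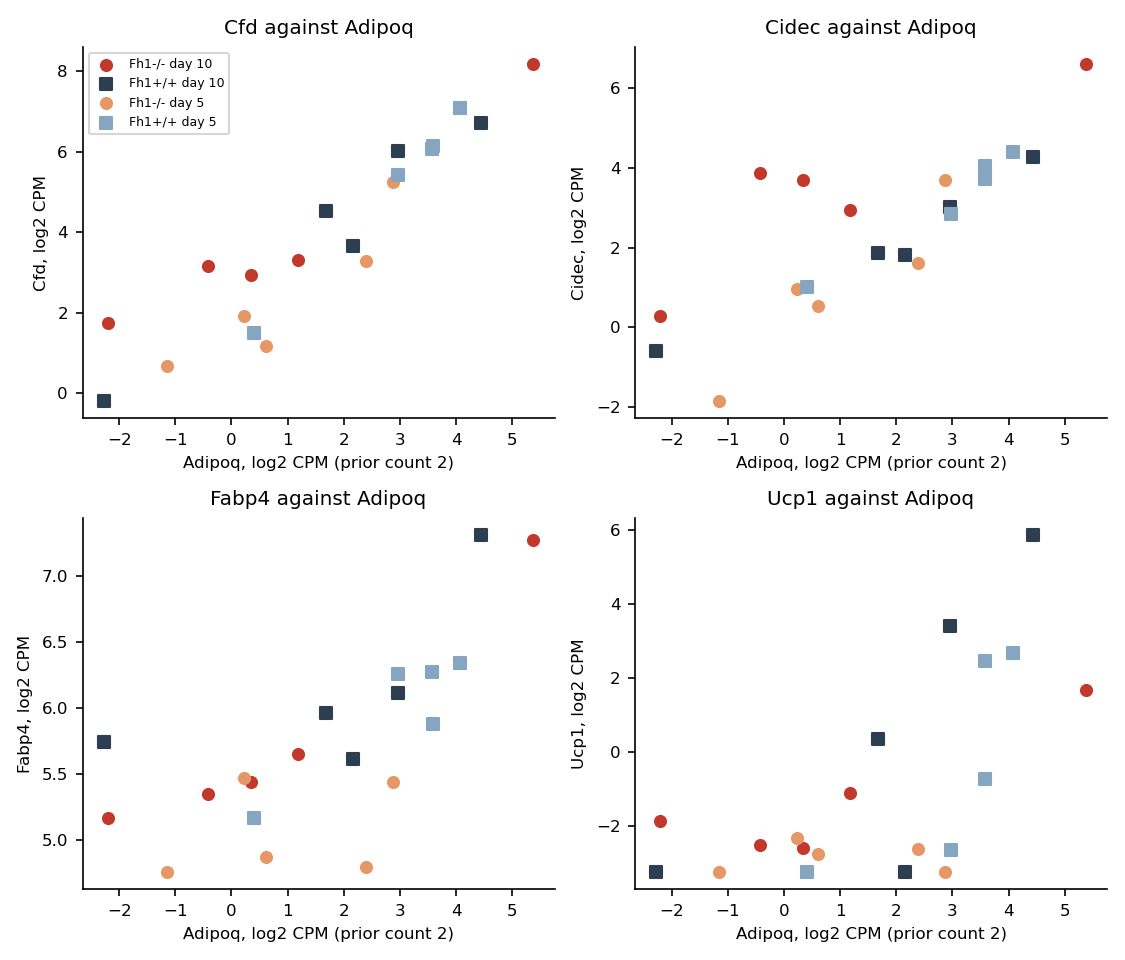
Cfd, Cidec, Fabp4 and Ucp1 against Adipoq in each of the 20 libraries, both axes in log2 CPM with a prior count of 2. Cfd tracks Adipoq over the whole range, Fabp4 has a floor near 5 on the log2 scale, Ucp1 parts libraries of like Adipoq, and in the Cidec panel Fh1-/- day 10 libraries lie above the others.

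Genes outside the markers shared the pattern. Ranked by r with the index after centring on group means (14925 genes, 20 libraries), the nearest included Abcd2 (0.94), Retn (0.94), Apol6 (0.93), Slc22a3 (0.91), Adrb3 (0.90), Acvr1c (0.87) and Slc36a2 (0.87). Retn encodes the adipokine resistin and Adrb3 the beta-3 adrenergic receptor by which catecholamines start lipolysis in rodent fat cells. Abcd2 is a peroxisomal transporter of very long chain fatty acyl-CoA and Slc22a3 an organic cation transporter. Only 49 genes other than the markers passed r = 0.7, which is 0.328% of those ranked. Among them were 7 of the 14 other adipocyte genes ranked (median r 0.67) and 1 of 12 brown fat genes (median 0.52), but 0 of 14 genes of lipid storage and lipolysis, 0 of 12 endothelial and 0 of 10 kidney markers. The 5 mesothelial markers, of the cell layer that covers abdominal organs, had a median r of 0.47 and none passed 0.7.

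Whether fat cell RNA differed between the genotypes was asked first at day 10. None of the 6 markers tested was called by edgeR's quasi-likelihood test (adjusted p under 0.01 and absolute log2 fold change over 0.58), where 0.0557% of 14360 genes were, and none had an unadjusted p under 0.05. DESeq2 called none either, against 5.55% of genes. The log2 fold change, Fh1-/- against Fh1+/+, was 0.29 for Adipoq (SE 1.36, edgeR adjusted p = 0.907), 0.63 for Cfd (SE 1.34, edgeR adjusted p = 0.782) and −0.51 for Plin1 (SE 1.30, edgeR adjusted p = 0.819). It was 1.93 for Cidec (SE 1.07, edgeR adjusted p = 0.263), −0.29 for Fabp4 (SE 0.47, edgeR adjusted p = 0.710) and −0.97 for Car3 (SE 1.09, edgeR adjusted p = 0.575). With standard errors above 1 for 5 of these genes, differences of several fold in either direction were not detectable.

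Single libraries set the direction of most of these values, while Car3 stayed below 0 and Cidec above 0 in each of 10 fits that left out 1 library. Without Fh1-/- day 10 replicate 2 the log2 fold change was −2.83 for Adipoq, −2.50 for Cfd, −2.89 for Plin1, −3.15 for Car3, −0.90 for Fabp4 and 0.35 for Cidec, with edgeR adjusted p-values from 0.0421 (Car3) to 0.796 (Cidec). Then 5 of the 6 markers lay below 0, against 3 of 6 with all libraries. Without Fh1+/+ day 10 replicate 5, the library richest in Ucp1, 5 of 6 lay above 0, with Adipoq at 1.25, Cfd at 1.34, Plin1 at 0.67 and Fabp4 at 0.14. Adipoq and Cfd thus changed sign without the first of these libraries, and Plin1 and Fabp4 without the second. The reach of replicate 2 went beyond the markers: 235 of 14514 genes were called at day 10 without it, including all 8 of those called with it. Without Fh1+/+ day 10 replicate 4, and likewise without replicate 5, 0 genes were called. The part of fat cell RNA in these counts was not tested by leaving libraries out. With the fat cell index of each library as a covariate 14 genes were called at day 10, of which 6 were among those 8. The index includes Cidec, which was high against Adipoq in Fh1-/- day 10 libraries (below), so at day 10 it may not follow fat cell RNA alone.

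At day 5 all 6 markers tested lay below 0 on the log2 scale, with a median of −1.66, against a median of −0.01 over all 14404 genes tested. None was called by edgeR (0.0347% of genes were) or by DESeq2 (0.216% of genes). At an unadjusted p under 0.05, 5 of the 6 were lower in Fh1-/- libraries, against 2.37% of all genes. The 5 share their libraries and vary together, so they are not 5 separate observations. The log2 fold change was −1.71 for Adipoq (SE 0.75, edgeR adjusted p = 1.00), −2.54 for Cfd (SE 0.98, edgeR adjusted p = 0.967), −2.07 for Plin1 (SE 0.81, edgeR adjusted p = 1.00) and −1.61 for Cidec (SE 0.84, edgeR adjusted p = 1.00). For Car3 it was −1.47 (SE 0.44, edgeR adjusted p = 0.751). Fabp4 had the smallest error, at −0.95 (SE 0.23, edgeR adjusted p = 0.443 and DESeq2 adjusted p = 0.0157), with 34.2 ± 8.76 CPM in Fh1-/- and 65.9 ± 18.8 CPM in Fh1+/+ libraries (SD, n = 5 each). The direction held in each of 10 fits that left out 1 library. In the same libraries the 5 mesothelial markers all lay below 0 as well, with a median of −1.13, and their summed level was 12.0 to 26.0 CPM in Fh1-/- and 16.7 to 61.0 CPM in Fh1+/+ libraries, with no marker at 0 reads in either group. Their part in the result was not tested. With the fat cell index as a covariate, 2 genes were called at day 5, both of them among the 5 called without it.

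**Figure D3:**
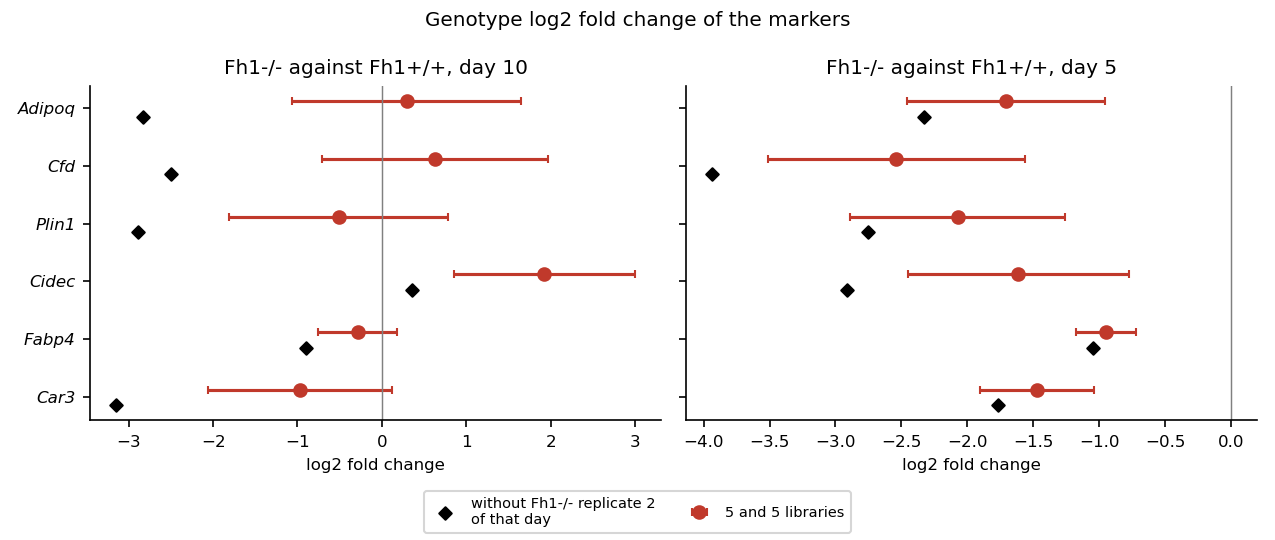
Genotype log2 fold change (Fh1-/- against Fh1+/+) of the 6 markers that passed the filter at day 10 (left) and day 5 (right). Red points with bars are edgeR estimates and standard errors over 5 and 5 libraries, and black diamonds are estimates without Fh1-/- replicate 2 of that day. At day 10 the diamonds of Adipoq and Cfd lie on the other side of 0, and at day 5 every estimate lies below 0.

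Between the days, no marker was called in either genotype. Day 10 set against day 5, 5 of 6 markers lay above 0 in Fh1-/- libraries, led by Cidec at 2.77 (SE 1.16, edgeR adjusted p = 0.130) and Cfd at 2.54 (SE 1.38, edgeR adjusted p = 0.225), where 0.576% of 14235 genes were called. Without Fh1-/- day 10 replicate 2 only Cidec (1.20) and Fabp4 (0.29) stayed above 0, and Car3 was at −2.44 (edgeR adjusted p = 0.0102). In Fh1+/+ libraries 3 of 7 markers lay above 0, the highest being Ucp1 at 2.51 (SE 1.57, edgeR adjusted p = 0.948). No gene of 14501 was called there by edgeR or DESeq2 (0%). The genotype effect at day 10 less that at day 5 was above 0 for 7 of 7 markers, against 48.9% of all genes. It passed the threshold for none (0.0335% of 14934 genes did), and was largest for Cidec, at 3.54 (SE 1.45, edgeR adjusted p = 0.190). The markers vary together, and without Fh1-/- day 10 replicate 2 this difference was above 0 for 3 of 7, with a median of −0.52.

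Set against Adipoq and Plin1, Cidec was high in Fh1-/- libraries of day 10, while Car3 was low in a covariate fit but not in its ratio to Adipoq. Neither passed the threshold. For each Adipoq read there were 10.9, 2.35, 22.6, 10.0 and 3.52 Cidec reads in Fh1-/- day 10 replicates 1 to 5, against 5.50, 1.15, 0.785, 1.03 and 0.894 in Fh1+/+ day 10 replicates 1 to 5. These ratios rest on 19, 734, 9, 2 and 48 Adipoq reads in the Fh1-/- libraries, against 2, 67, 79, 144 and 387 in the Fh1+/+ libraries. At day 5 the ratio was 0.500 to 1.79 in Fh1-/- and 0.914 to 1.57 in Fh1+/+ libraries. Every Fh1-/- day 10 library thus lay above every library of day 5. Other markers were also high against Adipoq in some Fh1-/- day 10 libraries. Plin1 reads per Adipoq read were 1.26, 0.395, 1.33, 2.00 and 0.208 in replicates 1 to 5 of that group, against 0 to 0.822 in Fh1+/+ day 10 libraries. Those of Cfd were 6.47, 7.06, 13.9, 29.0 and 4.54, against 2.89 to 8.44. For Car3 the reads per Adipoq read were 5.16, 2.01, 9.22, 20.5 and 1.77 in Fh1-/- day 10 replicates 1 to 5. They were 47.0, 7.33, 2.32, 6.02 and 5.24 in Fh1+/+ day 10 replicates 1 to 5, so the genotypes overlapped. With the mean log2 CPM of Adipoq and Plin1 of each library as a covariate, chosen once the values had been seen, the genotype log2 fold change of Cidec at day 10 was 2.24 (SE 0.38, edgeR adjusted p = 0.0406), and its difference between the days was 2.69 (SE 0.56, edgeR adjusted p = 0.0229). Neither passed the threshold of 0.01. At day 5 the same fit gave −0.13 (SE 0.42, edgeR adjusted p = 0.999). Cfd, fitted in the same way, was at 0.47 (SE 0.30, edgeR adjusted p = 0.359) at day 10, Car3 at −1.06 (SE 0.35, edgeR adjusted p = 0.141) and Fabp4 at −0.24 (SE 0.26, edgeR adjusted p = 0.590). Day 10 set against day 5 in Fh1-/- libraries, the fit gave 2.25 for Cidec (SE 0.51, edgeR adjusted p = 0.0306) and −1.68 for Car3 (SE 0.38, edgeR adjusted p = 0.0294).

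Droplet genes that other cell types use lay above 0 with it at day 10. Of 14 genes of lipid storage and lipolysis, 12 had a log2 fold change above 0 (median 0.61, against −0.000734 over all genes). None was called by edgeR. With no adjustment, 7 had an edgeR p under 0.05 and were higher (15.1% of all genes) and 1 was lower (11.9%), and DESeq2 called 5 higher (3.49% of all genes): Pnpla2, Plin2, Plin3, Plin5 and Hilpda. Plin2, the perilipin of droplets outside fat cells, was at 2933, 127, 3167, 190 and 374 CPM in Fh1-/- day 10 replicates 1 to 5, against 100.4, 69.4, 85.4, 95.0 and 118 CPM in Fh1+/+ replicates 1 to 5, a log2 fold change of 3.85 (SE 0.90, edgeR adjusted p = 0.0501). The genotypes did not overlap, though only narrowly (127 against 118 CPM), and the high libraries were replicates 1 and 3, not replicate 2. How many of all genes separated the genotypes in this way was not counted. Without both of these libraries Plin2 was at 1.30 (SE 0.31, edgeR adjusted p = 0.0975), and the median of the list was 0.32 with 12 of 14 genes above 0. The DESeq2 adjusted p was then 5.47e-05 for Pnpla2, 0.00271 for Plin2, 0.00879 for Plin5, 0.0945 for Plin3 and 0.454 for Hilpda. The share of all genes that DESeq2 called in that fit was not counted. Pnpla2, the adipose triglyceride lipase, was at 626, 358, 758, 477 and 510 CPM in Fh1-/- libraries, against 282, 167, 233, 216 and 231 CPM in Fh1+/+ libraries (log2 fold change 1.26, SE 0.21, edgeR adjusted p = 0.0271). It rose in Fh1-/- libraries between the days, by 1.48 on the log2 scale (SE 0.19, edgeR adjusted p = 0.00624), the only gene of the list called there. That call was lost in 9 of 10 fits that left out 1 library (log2 fold change 1.34 to 1.60, edgeR adjusted p from 0.000680 to 0.0270) and with the replicate number as a block (1.44, edgeR adjusted p = 0.0526), and held without both replicates 1 and 3 (1.19, edgeR adjusted p = 0.00675). All genes called in that comparison numbered 82, and 0 to 774 when 1 library was left out, the 0 arising when replicate 1 of either Fh1-/- group was missing and the 774 when replicate 2 of the day 10 group was. Plin5, a perilipin of oxidative tissues, had a day 10 genotype log2 fold change of 1.32 (SE 0.28, edgeR adjusted p = 0.0410).

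Plin4, a perilipin of white fat that muscle also makes, showed both patterns. It was at 22.4, 34.4, 26.9, 10.4 and 38.8 CPM in Fh1-/- day 10 replicates 1 to 5, against 2.00, 3.56, 6.80, 7.38 and 9.60 CPM in Fh1+/+ day 10 replicates 1 to 5. The genotypes did not overlap, again with no count of how many genes did so. The log2 fold change was 2.17 (SE 0.45, edgeR adjusted p = 0.0383), called by DESeq2 only. Within groups its r with the fat cell index was 0.83, while that of Plin2 was −0.15 and that of Pnpla2 −0.37. At day 5 none of the 14 lipid storage genes was called, their median was −0.07, and Plin2 was at 0.02 (SE 0.10, edgeR adjusted p = 1.00).

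**Figure D4:**
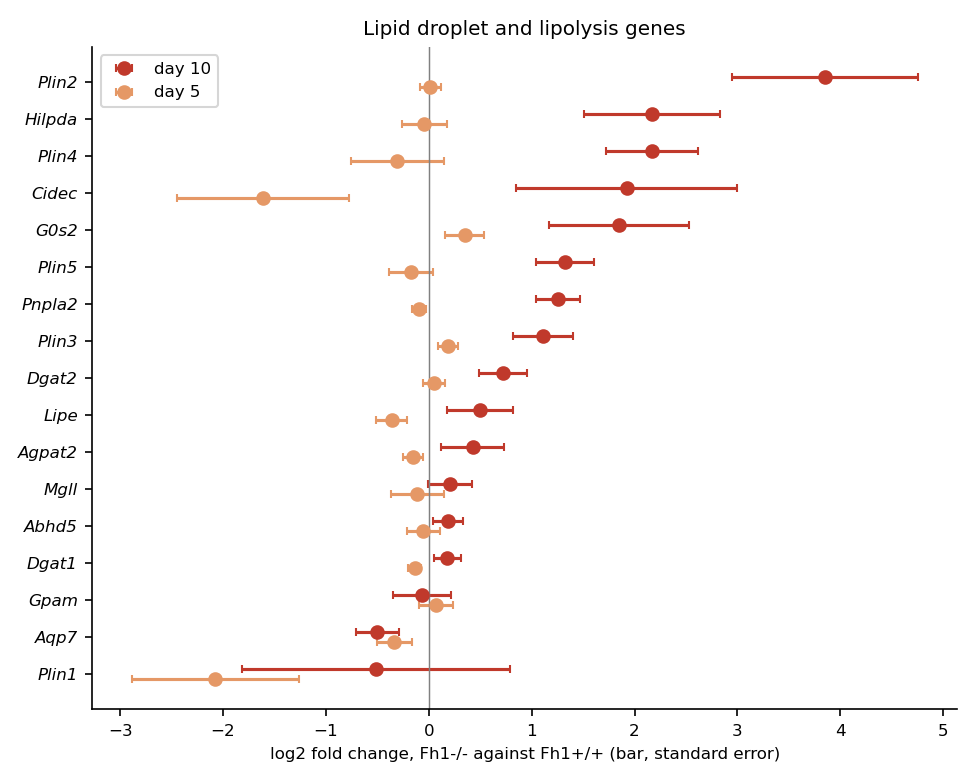
Genotype log2 fold change (Fh1-/- against Fh1+/+, edgeR, bars are standard errors) of 14 lipid storage and lipolysis genes with Plin4 and the markers Cidec and Plin1, at day 10 (dark) and day 5 (light). At day 10 Plin2 is highest at 3.85 and Cidec at 1.93 has a long bar, and at day 5 Plin1 and Cidec lie at −2.07 and −1.61 while the lipid storage genes lie near 0.

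Other gene groups of fat biology were counted in the same way. Of 11 lipid synthesis and uptake genes, such as Fasn, Acaca and Scd1, 0 were called by edgeR or DESeq2 at day 10 and 2 were lower at an unadjusted p under 0.05 (11.9% of all genes). These were Scd1, a fatty acid desaturase, at −1.19 (SE 0.42, edgeR adjusted p = 0.117) and Me1, the cytosolic malic enzyme, at −0.86 (SE 0.33, edgeR adjusted p = 0.134). The 4 receptors of adiponectin and leptin were also not called by either tool at day 10, and 0 had an unadjusted p under 0.05. The sum of these receptors was 401 ± 21.0 CPM in Fh1-/- and 387 ± 16.8 CPM in Fh1+/+ libraries (SD, n = 5 each). Markers of other cells that a piece of kidney may carry were measured beside these values at day 10. The 12 endothelial markers lay below 0 for 10 genes (median −0.63), the leukocyte markers for 5 of 6 tested (median −1.10), and the 2 adrenal markers tested on either side of 0. The mean log2 CPM of the endothelial markers was 3.59 and 3.65 in Fh1-/- day 10 replicates 1 and 3 and 5.21 to 5.61 in the other 3 Fh1-/- libraries, against 5.23 to 5.94 in the Fh1+/+ libraries of day 10. Without those 2 libraries the endothelial median was −0.09 and the leukocyte median −0.56. With all libraries 3 of the 6 leukocyte markers were lower at an unadjusted edgeR p under 0.05, and DESeq2 called Adgre1, a macrophage receptor, lower at −1.19 (DESeq2 adjusted p = 0.00929). Cd68, another macrophage marker, averaged higher, at 18.6 ± 18.4 CPM in Fh1-/- and 6.99 ± 2.96 CPM in Fh1+/+ libraries (SD, n = 5 each). Without Fh1-/- day 10 replicates 1 and 3 all 6 leukocyte markers lay below 0. DESeq2 called only Ptprc of them, and its share of calls over all genes was not counted in that fit. The 12 adrenal markers summed to 7.85 to 39.5 CPM in Fh1-/- and 6.64 to 15.3 CPM in Fh1+/+ libraries. Most of the Fh1-/- sum was Akr1b7, at 17.1 ± 16.2 CPM in Fh1-/- and 3.78 ± 1.11 CPM in Fh1+/+ libraries (SD, n = 5 each). Th and Dbh were at 7.71 and 15.9 CPM in Fh1-/- day 10 replicate 2, the library with the most Adipoq, while their medians in that group were 0 and 0.045 CPM. Cyp11b1, Cyp11b2 and Nr5a1 held 0 reads in the Fh1-/- group, against 24, 0 and 4 in the Fh1+/+ group. The 8 skeletal muscle markers, which matter for Car3, summed to 1.42 to 3.82 CPM in Fh1-/- and 1.84 to 6.85 CPM in Fh1+/+ libraries. Of these lists no gene was called by edgeR at day 10 and only Adgre1 by DESeq2 with all libraries, and their part in the marker values was not tested.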

How the data were processed

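The authors deposited raw counts of reads per gene symbol for 20 kidney libraries. Reads of polyadenylated RNA had been trimmed with Cutadapt 1.10.0, aligned to GRCm38 by STAR 2.6.0c and counted with Rsubread 1.28.1 and GENCODE M17. Whether the counting used strand is unknown, so reads of overlapping antisense genes may be included. The deposited counts are not normalized and replicates are not pooled. Total counts were 16654829 to 25001294 per library, and each pair of replicates differed by more than the sampling noise (40 pairs, chi-square per degree of freedom 7.49 to 373).

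Each comparison used its own 10 libraries, or all 20 for the difference between the days, in edgeR 4.0.16 in R 4.3.3 (TMM, filterByExpr, glmQLFit, glmQLFTest, Benjamini-Hochberg over all genes tested). Levels are CPM on TMM-normalized library sizes, log2 CPM has a prior count of 2, and lengths are exon unions of GENCODE gene models for GRCm38. The standard error is the absolute log2 fold change over the square root of F. Promoters came from RefSeq. Correlations used 100000 permutations, two-sided. Figures were drawn with matplotlib 3.10.9, and the fits were tested on simulated data.

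The alternatives were DESeq2 1.42.0, RLE size factors, no filter, a filter of 1 CPM in 5 libraries, an adjusted p limit of 0.05 without any fold limit, the Y-linked level as a covariate, a block for the replicate number, leaving out each library, leaving out Fh1-/- day 10 replicates 1 and 3 and, for counts of genes called, the fat cell index as a covariate. The covariate of Adipoq and Plin1, the settings tried on the call of Pnpla2 and the lists without Fh1-/- day 10 replicates 1 and 3 were added after seeing the data. The markers and lists were chosen with earlier results of these data known. Genes named are the 8 markers, the 8 genes most like the index (1 of them is not reported here), up to 4 genes of each list by their p at day 10, and Fh1. Hilpda, Cidea, Otop1, Dio2, Kcnk3, Elovl3, Zic1, Lhx8, Cd68, Ptprc, the adrenal markers and the list members given as examples were named after their values were seen.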

Additional observations from a re-analysis of the deposited data

Results flagged for a closer look

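Of 32 sets of 5 libraries (8 markers in 4 groups), 4 held a library far from its group by Dixon's test, where chance alone gives about 1 in 20. The markers share their libraries and vary together, so the 32 sets are not separate trials and the 2 rates cannot be set against each other. In Fh1-/- day 10 replicate 2 the log2 CPM of Cfd was 8.19, that of Fabp4 7.28 and that of Car3 6.38, each far above the other 4 libraries of the group. In Fh1+/+ day 5 replicate 5 the log2 CPM of Plin1 was −1.65, far below the other 4.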

How the results depend on the processing

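No marker was called under any alternative. Of 654 values of single markers under an alternative, 628 kept their direction and 26 changed it, 18 of those when 1 library was left out. The count of genes called at day 10 was 8, and was 796 with DESeq2, 16 with no filter, 3 with the filter of 1 CPM in 5 libraries, 406 at an adjusted p limit of 0.05 without any fold limit, 20 with the Y-linked level as a covariate, 14 with the fat cell index as a covariate, 2 without Fh1-/- day 10 replicates 1 and 3, and 0 to 235 when 1 library was left out. At day 5 it was 5, and was 31 with DESeq2, 9 at an adjusted p under 0.05, 8 with the Y-linked covariate, 2 with the index covariate, and 2 to 4 when 1 library was left out. The cause was not tested.

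Leaving out 1 library gave day 10 genotype log2 fold changes of −2.83 to 1.25 for Adipoq, −2.50 to 1.34 for Cfd, −2.89 to 0.67 for Plin1 and −0.90 to 0.14 for Fabp4. Between the days the range was −1.56 to 2.19 for Adipoq, −2.44 to 0.040 for Car3, −0.59 to 3.92 for Cfd and −0.67 to 2.38 for Plin1 in Fh1-/- libraries, and −0.17 to 0.38 for Fabp4 and −1.02 to 0.48 for Plin1 in Fh1+/+ libraries. For the difference between the days it was −1.12 to 2.96 for Adipoq, −1.69 to 1.42 for Car3, −0.83 to 2.75 for Plin1 and −0.52 to 3.81 for Ucp1. Without Fh1-/- day 10 replicates 1 and 3, Fabp4 was at 0.036 and Plin1 at 0.050 at day 10, and Car3 between the days in Fh1-/- libraries at 0.29. Adipoq at day 10 was at −0.24 with the Y-linked covariate, and the difference between the days of Car3 was −0.79 with the Adipoq and Plin1 covariate.

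Most same-numbered libraries did not deviate together (r over 0.1 in 4 of 20 pairs, from −0.51 to 0.33). The labels give only the number, and whether same-numbered mice shared a litter or a day of collection was not tested. With the replicate number as a block, 0 genes were called at day 10 and 0 at day 5, Adipoq was at −1.37 and Cfd at −0.44 at day 10, and Plin1 between the days in Fh1+/+ libraries was at −0.91. Depth limits Lep and Ucp1, which had 104 and 1561 reads in all 20 libraries together.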
